A study of Mus musculus with 4 samples.

Results

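The genes described here encode the ligands, receptors and latency proteins of transforming growth factor beta (TGF-beta): the ligands Tgfb1, Tgfb2 and Tgfb3, the receptors Tgfbr1, Tgfbr2 and Tgfbr3, and the latent TGF-beta binding proteins Ltbp1, Ltbp2, Ltbp3 and Ltbp4. These 10 genes were listed by name, with no threshold on a measured value but with earlier results of these data known. All 10 were among the 25149 genes of the count tables. They were followed in single-cell RNA sequencing of the liver cells that remain when hepatocytes are removed, from 4 wild-type male mice aged 8 to 10 weeks. The 2 CCl4 mice received carbon tetrachloride (CCl4), a hepatotoxic solvent whose repeated doses scar the liver, mixed 1 to 9 in corn oil. The 2 corn oil mice received the vehicle. Each mouse was given 10 µl per g of body weight into the peritoneum 2 times a week for 5 weeks and was killed 48 hours after the final dose. After perfusion of the liver with pronase and collagenase, hepatocytes were spun out at 50 × g, and a density gradient took away dead cells and erythrocytes. Hepatocyte RNA was still present: the 5 hepatocyte markers summed to 2847 to 8807 CPM (UMIs per 1000000 UMIs) in cells of no gate, which the whole-library values include.

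TGF-beta is secreted in a latent form. Its own propeptide stays wrapped around the ligand, most latent TGF-beta binding proteins tie that complex to microfibrils of the extracellular matrix, and integrins, thrombospondin or proteases free it. Free ligand binds the type II receptor, which phosphorylates the type I receptor, which in turn phosphorylates SMAD proteins that enter the nucleus. In the liver this signal is a main driver of the change of hepatic stellate cells, the vitamin A storing pericytes of the sinusoid, into contractile, matrix-making myofibroblasts.

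Cells were assigned to 4 types by gates on UMIs (unique molecules counted) of genes that are not among the 10. A cell was endothelial with at least 5 UMIs of Kdr, Ptprb and Egfl7 together, stellate with at least 5 of Reln, Colec11 and Lrat, Kupffer (the resident liver macrophage) with at least 5 of Clec4f, and monocyte with at least 3 of Chil3, F13a1 and Vcan and at most 2 of Clec4f. Cells that passed more than 1 gate were left out of all 4. The endothelial gate held 3085 and 2795 cells in CCl4 1 and CCl4 2, against 5287 and 5370 in corn oil 1 and corn oil 2. The stellate gate held 462 and 144 cells in CCl4 mice against 179 and 145 in corn oil mice, and the Kupffer gate 228 and 225 against 217 and 222. The monocyte gate held 911 and 1349 cells in CCl4 mice but only 43 and 23 in corn oil mice.

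Markers that the gates did not use fitted the endothelial, stellate and Kupffer labels. Levels are in CPM, the UMIs of a gene per 1000000 UMIs of the gate. The 7 stellate markers summed to 16477 to 19224 CPM in the stellate gate of CCl4 mice and 33695 to 37171 in corn oil mice, while the 7 endothelial markers there were at 105 to 120 in CCl4 mice and 265 to 301 in corn oil mice. In the endothelial gate those 7 (Stab2, Clec4g, Pecam1, Cdh5, Fcgr2b, Mrc1 and Dnase1l3) were at 13353 to 13611 in CCl4 mice and 19145 to 19745 in corn oil mice. The Kupffer gate had 6 Kupffer markers at 18048 to 19750 in CCl4 mice and 13778.5 to 14938.5 in corn oil mice. It also held the 6 monocyte markers, at 4824 to 6669 in CCl4 mice and 5669 to 7653 in corn oil mice. By Ccr2, the chemokine receptor of classical monocytes, the monocyte label fitted most cells in CCl4 mice, with a UMI in 817 of 911 and 1282 of 1349 cells. Ly6c2, another of the monocyte markers, had a UMI in 546 and 910 of these cells, so part of the gate had none. In corn oil mice the gate held a mixture. The 6 monocyte markers summed to 18489 and 22555 CPM in the gate of CCl4 mice against 12875 and 20241 in that of corn oil mice. In corn oil mice Lyz2, a myeloid gene, had a UMI in 37 of 43 and 23 of 23 cells. Ccr2 had a UMI in 22 of 43 and 10 of 23 cells and Ly6c2 in 6 and 2 cells. Gata6, a transcription factor of peritoneal macrophages, had one in 18 of 911 and 13 of 1349 cells in CCl4 mice, against 16 of 43 and 9 of 23 in corn oil mice. For that reason the levels in the monocyte gate of CCl4 mice are given as those of monocyte-like cells, while a change between the groups in this gate also compares cells of different makeup.

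The tables held 6313 and 5948 cells in CCl4 mice and 7167 and 7663 in corn oil mice, with 45408857 to 55529871 UMIs per library. Median UMIs per kept cell were 6793 and 6036 in CCl4 mice and 5325 and 4441 in corn oil mice. All 4 samples carry the same batch label, but the file headers show that the CCl4 1 table came from a separate run of the counting pipeline, and that run and that mouse cannot be told apart. Between 48 and 74 cell indices were shared by each pair of libraries. CPM values are sums over the cells of a gate in 1 mouse and are compared between cells for the same gene, not between genes. A change is the log2 ratio of CCl4 to corn oil mice, given with its standard error (SE) from the quasi-likelihood fit of edgeR over mice, and "called" means an adjusted p under 0.05. With 2 mice a group, p-values rest on little replication.

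Genes of all 3 roles, ligand, receptor and latency protein, differed between the groups in stellate cells. In the stellate gate 5 of the 10 genes were called, against 10.2% of all 8978 genes tested there. Tgfb2, Tgfb3 and Ltbp2 were higher in CCl4 mice (5.29% of all genes were called higher), and Tgfbr3 and Ltbp4 were lower (4.91% were called lower). In the endothelial gate 2 of 10 were called (background 5.42%), in the Kupffer gate 1 of 8 tested (background 15.3%), and in the monocyte gate 3 of 10, all lower (background 5.47% in all and 3.06% lower). The Kupffer count is near the background share. Because the 10 genes were chosen with earlier results of these data known, these counts are descriptive and do not test an excess over the background.

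**Figure D1:**
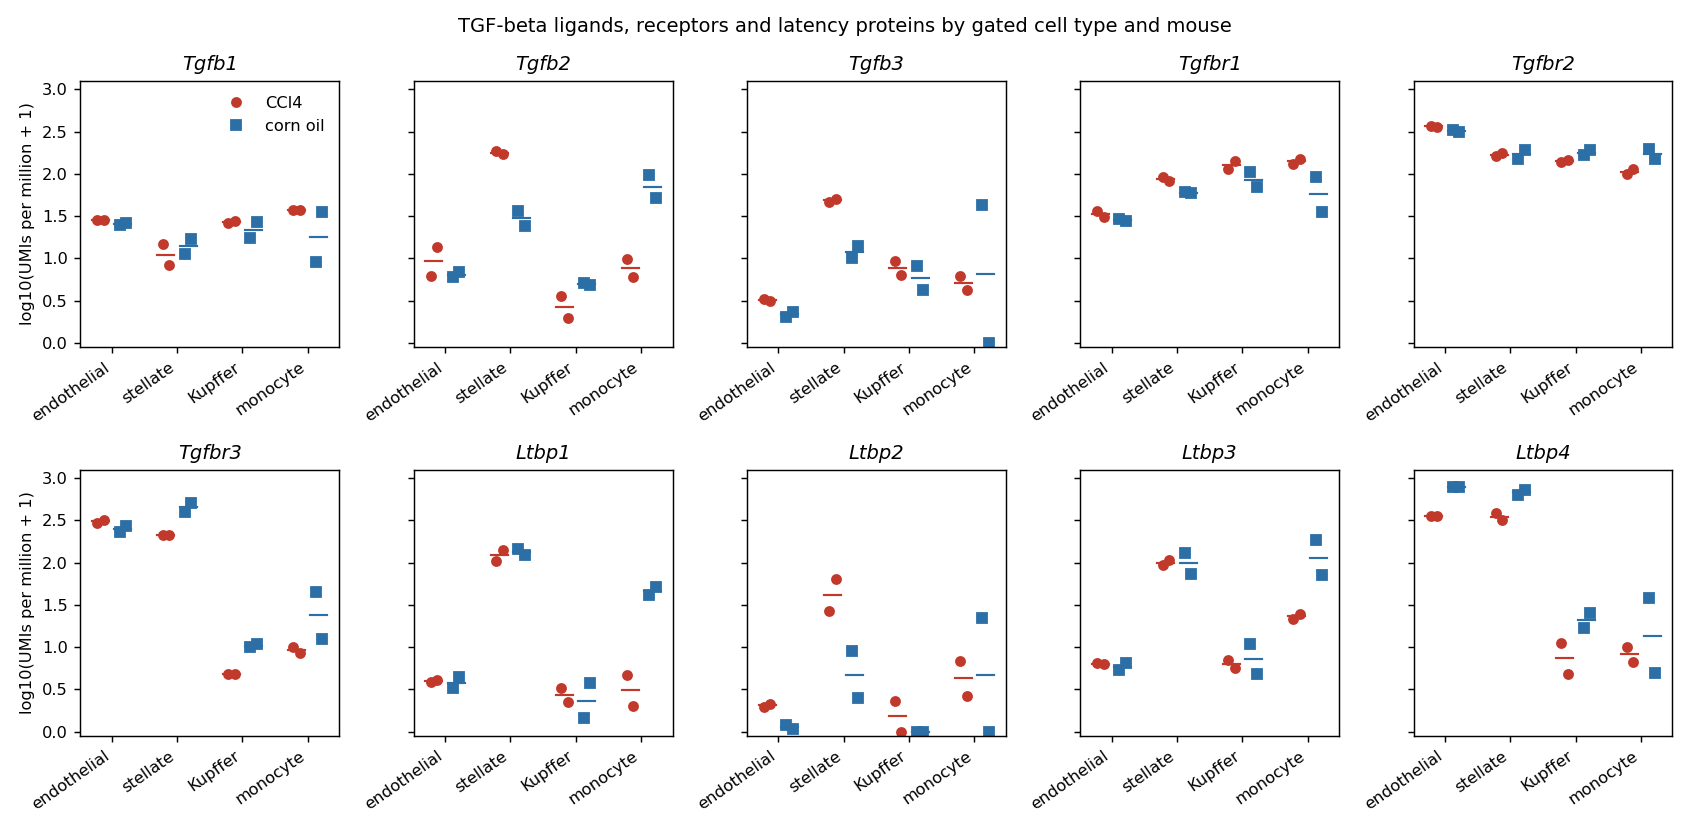
Level of each of the 10 genes in the 4 gates, as log10(CPM + 1), with 1 point per mouse, CCl4 mice as red circles and corn oil mice as blue squares, and a bar at the group mean of the plotted values. Tgfb2 and Tgfb3 of CCl4 mice stand above those of corn oil mice in the stellate gate, and Ltbp4 of CCl4 mice stands below in the stellate and endothelial gates. The corn oil points of the monocyte gate rest on 43 and 23 cells.

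Among the ligands, Tgfb2 (chr1:186622787-186709697, GRCm38) changed most clearly. TGF-beta2 is the isoform that needs the coreceptor betaglycan for high-affinity binding to the type II receptor. Stellate-gated cells had Tgfb2 at 186.8 and 170.2 CPM in CCl4 1 and CCl4 2, against 35.5 and 23.5 in corn oil 1 and corn oil 2 (736 and 208 UMIs, against 31 and 16). The groups did not overlap, and every CCl4 mouse was several times above every corn oil mouse. The fold change was 5.82 (log2 2.54, SE 0.24, adjusted p = 0.000642). It was called in all 14 alternatives run, among them each of the 4 fits that leave out a mouse, with log2 values of 1.80 to 2.98. The lowest, 1.80, came when cells that passed both the stellate and the endothelial gate were added, an alternative chosen after seeing the data.

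The same difference appeared in the share of cells with a Tgfb2 UMI once every cell had been thinned to 1500 UMIs. In stellate-gated cells it was 23.2% and 19.4% in CCl4 mice, against 5.03% and 2.07% in corn oil mice (52.6% and 47.9% against 8.38% and 6.90% before thinning). After thinning, a Tgfb2 UMI was found in 1 of the 892 Kupffer-gated cells of the 4 mice. Median depths before thinning were 8074 and 7967 UMIs in stellate-gated cells of CCl4 mice and 4420 and 4237 in those of corn oil mice, against 13570.5, 14622, 8689 and 7502 in Kupffer-gated cells of CCl4 1, CCl4 2, corn oil 1 and corn oil 2.

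The RefSeq table of promoter sequences (GRCm38.p6) held windows for 8 of the 10 genes. Those of 4 genes are shown as examples of each outcome: Tgfb2 and Ltbp2, which were higher in stellate cells of CCl4 mice, Ltbp4, which was lower, and Tgfb1, which was not called in any gate. Each is the 250 bases before a transcript start, 5′ to 3′ on the gene's strand. Capitals mark matches, on either strand, to the TATA box TATAAA and to the SMAD-binding letters CAGAC. The windows lie at chr1:186705990-186706239 (Tgfb2, minus strand), chr12:84876492-84876741 (Ltbp2, minus strand), chr7:27337613-27337862 (Ltbp4, minus strand) and chr7:25686752-25687001 (Tgfb1, plus strand).
Tgfb2: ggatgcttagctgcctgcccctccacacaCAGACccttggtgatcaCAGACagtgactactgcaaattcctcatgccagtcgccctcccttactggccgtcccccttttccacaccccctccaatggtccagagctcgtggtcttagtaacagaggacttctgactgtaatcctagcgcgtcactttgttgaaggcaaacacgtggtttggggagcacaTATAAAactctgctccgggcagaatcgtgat
Ltbp2: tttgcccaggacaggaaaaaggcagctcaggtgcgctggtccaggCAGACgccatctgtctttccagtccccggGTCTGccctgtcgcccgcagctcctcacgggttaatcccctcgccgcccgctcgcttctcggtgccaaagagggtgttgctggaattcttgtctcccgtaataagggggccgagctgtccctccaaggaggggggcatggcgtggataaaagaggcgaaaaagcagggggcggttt
Ltbp4: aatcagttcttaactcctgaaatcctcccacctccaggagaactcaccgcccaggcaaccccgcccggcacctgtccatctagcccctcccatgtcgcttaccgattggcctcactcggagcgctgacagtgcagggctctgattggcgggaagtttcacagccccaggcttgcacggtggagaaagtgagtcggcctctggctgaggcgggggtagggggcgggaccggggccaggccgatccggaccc
Tgfb1: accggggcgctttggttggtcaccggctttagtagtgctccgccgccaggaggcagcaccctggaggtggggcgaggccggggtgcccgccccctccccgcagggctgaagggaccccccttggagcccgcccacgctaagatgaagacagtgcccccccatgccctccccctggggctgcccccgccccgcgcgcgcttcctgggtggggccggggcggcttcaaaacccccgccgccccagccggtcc

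The Tgfb2 window holds a TATAAA beginning 31 bases before the start, a motif found in 12.4% of the 32851 promoter windows of the table, and 2 copies of CAGAC, 221 and 204 bases before it. The Ltbp2 window holds 2 copies of CAGAC, 205 and 176 bases before the start. The Ltbp4 and Tgfb1 windows shown hold neither, and 75.2% of the Tgfb1 bases are G or C, against 53.6% in Tgfb2. Ltbp4 had 3 windows, of which the first is shown, and the others hold neither as well. The windows shown for Tgfb2 and Ltbp4 lie inside the gene spans given in this text, so their starts are not the outermost ones. The 5 letters CAGAC occur in 42.2% of all windows, and also in windows of Tgfbr1, Tgfbr2, Ltbp1 and Ltbp3, none of which was called in stellate cells. Matches did not overlap each other. A further 3 motifs were searched on both strands, AP-1 (TGANTCA, in 6.75% of all windows), CRE (TGACGTCA, 1.55%) and TEAD (GGAATG, 12.6%), and none was in these 4 windows.

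Tgfb3 (chr12:86056743-86079041), a ligand of mesenchymal cells in many tissues, rose with Tgfb2. Stellate-gated cells had 45.7 and 49.9 CPM in CCl4 mice, against 9.2 and 13.2 in corn oil mice, from 180 and 61 UMIs against 8 and 9. Both CCl4 mice were above both corn oil mice (fold 4.18, log2 2.06, SE 0.34, adjusted p = 0.00664). The call was lost without CCl4 1 (log2 2.13, adjusted p = 0.109) and without CCl4 2 (log2 2.03, adjusted p = 0.0779), with the size nearly as before. Tgfb3 overlaps Ttll5 on the opposite strand, and use of strand in counting is not stated in the sources at hand. Ttll5, with 1025 UMIs over the gates against 565 of Tgfb3, did not pass the filter on low counts in the stellate gate.

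The 4 markers of fibroblasts that lack stellate genes (Dpt, Clec3b, Mfap5, Pi16) moved with these genes in the stellate gate, at 150 to 261 CPM in CCl4 mice against 48.4 to 87.0 in corn oil mice, with at least 2 of the 4 detected in each mouse. Fibroblast-gated cells outside the stellate gate, 29 and 11 in CCl4 mice and 7 and 13 in corn oil mice, had Tgfb3 at 183.5 and 62.7 CPM in CCl4 mice against 24.0 and 62.5 in corn oil mice, and Ltbp2 at 271.3 and 81.5 against 0 and 15.6. Their Tgfb2 was 171.5 and 81.5 in CCl4 mice against 144.1 and 203.2 in corn oil mice, so these few cells overlapped between the groups. The part of such cells in the stellate gate values was not tested.

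Tgfb1 (chr7:25687002-25705077), the isoform most often studied in fibrosis and carried by many blood and immune cells, was not called in any gate. In the stellate gate it had 13.7 and 7.4 CPM in CCl4 mice against 10.3 and 16.1 in corn oil mice, from 54 and 9 UMIs against 9 and 11. The groups overlapped (log2 -0.24, SE 0.50, adjusted p = 0.807). In the endothelial gate the values were 27.3 and 27.5 in CCl4 mice against 24.1 and 25.6 in corn oil mice (log2 0.08, SE 0.14, adjusted p = 0.777), and in the Kupffer gate 25.6 and 26.8 against 16.6 and 26.1 (log2 0.24, SE 0.28, adjusted p = 0.607). Monocyte-like cells of CCl4 mice had 36.6 and 36.7 CPM, against 8.1 and 34.8 in the gate of corn oil mice (log2 1.04, adjusted p = 0.301). That last value rests on single corn oil mice: it was -0.0014 without corn oil 1, and 2.15 and called without corn oil 2 (adjusted p = 0.0176).

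The ligands differed in which cells carried them. Averaged over the 4 mice, Tgfb1 was lower in stellate than in endothelial cells (log2 -1.15, SE 0.23, adjusted p = 0.00118) and higher in Kupffer than in stellate cells (log2 1.08, SE 0.26, adjusted p = 0.00323), while Kupffer and endothelial cells did not differ beyond their spread (log2 -0.07, SE 0.18, adjusted p = 0.736). Tgfb2 ran the other way, with stellate over endothelial at log2 3.35 (SE 0.34, adjusted p = 3.62e-06) and Kupffer over stellate at log2 -4.65 (SE 0.47). Tgfb3 was also higher in stellate than in endothelial cells (log2 3.73, SE 0.49, adjusted p = 3.34e-05), with Kupffer cells between them. Such differences were common to most genes. Of all 12629 genes tested, 50.2% were called between stellate and endothelial cells, 60.8% between Kupffer and endothelial cells and 56% between Kupffer and stellate cells, and of the 10 genes 8, 6 and 9 were.

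Outside the stellate gate no ligand was called higher. Endothelial Tgfb2 was at 5.1 and 12.8 CPM in CCl4 mice against 5.0 and 5.9 in corn oil mice, and it was CCl4 2 alone that stood apart (log2 0.64, SE 0.40, adjusted p = 0.398, and log2 -0.10 without CCl4 2). Endothelial Tgfb3 was at 2.3 and 2.1 in CCl4 mice against 1.0 and 1.3 in corn oil mice (log2 0.86, SE 0.36, adjusted p = 0.205). In the Kupffer gate Tgfb2 rested on 8 and 3 UMIs in CCl4 mice against 9 and 7 in corn oil mice (log2 -1.21, SE 0.65, adjusted p = 0.235). The rise of Tgfb2 in stellate cells was log2 2.02 larger than in endothelial cells (SE 0.56), and this difference was not called (adjusted p = 0.126). For Kupffer relative to stellate cells the difference was log2 -3.80 (SE 1.11, adjusted p = 0.133).

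In the monocyte gate Tgfb2 was lower, at 9.0 and 5.1 CPM in CCl4 mice against 95.2 and 50.3 in corn oil mice (log2 -3.55, SE 0.43, adjusted p = 0.0149). Ltbp1 was at 3.7 and 1.0 against 40.3 and 50.3 (log2 -4.37, SE 0.64, adjusted p = 0.0229), and Ltbp3 at 20.7 and 23.5 against 184.0 and 69.6 (log2 -2.68, SE 0.42, adjusted p = 0.0265). The groups did not overlap for these 3 genes. The calls were lost without CCl4 1 (log2 -3.92, -5.46 and -2.53 for Tgfb2, Ltbp1 and Ltbp3) and without CCl4 2 (log2 -3.13, -3.67 and -2.73), and that of Tgfb2 also without the 5% of cells with most UMIs (log2 -3.81, adjusted p = 0.0637). Without corn oil 1 Ltbp3 was at log2 -1.73, and with a gate without Vcan Tgfb2 was at log2 -6.44, both still called. Markers of other cells moved with them. The 7 stellate markers summed to 490 and 416 CPM in CCl4 mice against 2590 and 619 in corn oil mice, and the 6 Kupffer markers to 242 and 223 against 2235 and 3176. Their part in these values was not tested, and the corn oil side of this gate held the Gata6-bearing cells described above.

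Counted over all kept cells of a library, Tgfb2 was at 25.1 and 16.1 CPM in CCl4 mice against 7.51 and 8.84 in corn oil mice, and Tgfb3 10.6 and 5.87 against 2.99 and 2.63, while Tgfb1 was at 25.6 and 28.8 against 22.2 and 24.2. Such a total joins the number of cells of each type with their level, and the shares show which cells held the molecules. Stellate-gated cells held 54.5% and 30.9% of a library's Tgfb2 UMIs in CCl4 mice, against 8.76% and 3.81% in corn oil mice. For Tgfb3 the stellate share was 31.5% and 24.9% in CCl4 mice against 5.67% and 7.20% in corn oil mice. Endothelial cells held 48.3% and 43.9% of the Tgfb1 UMIs in CCl4 mice against 69.9% and 58.7% in corn oil mice, and monocyte-gated cells 14.5% and 24.0% against 0.477% and 0.781%. In each of these shares the groups did not overlap, and the exact two-sided permutation p over mice was 0.333, which is the floor for a design of this size. Cells in more than 1 gate held 9.72% to 31.2% of the Tgfb1 UMIs and 11.1% to 34.5% of the Tgfb2 UMIs of a library. Among them, 152 and 45 cells of CCl4 mice against 313 and 369 of corn oil mice passed both the stellate and the endothelial gate. Both the stellate and the Kupffer gate were passed by 74 and 16 against 145 and 182 cells. The stellate gate itself kept 462 and 144 against 179 and 145 cells. The part of this unequal loss in the stellate shares was not tested.

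**Figure D2:**
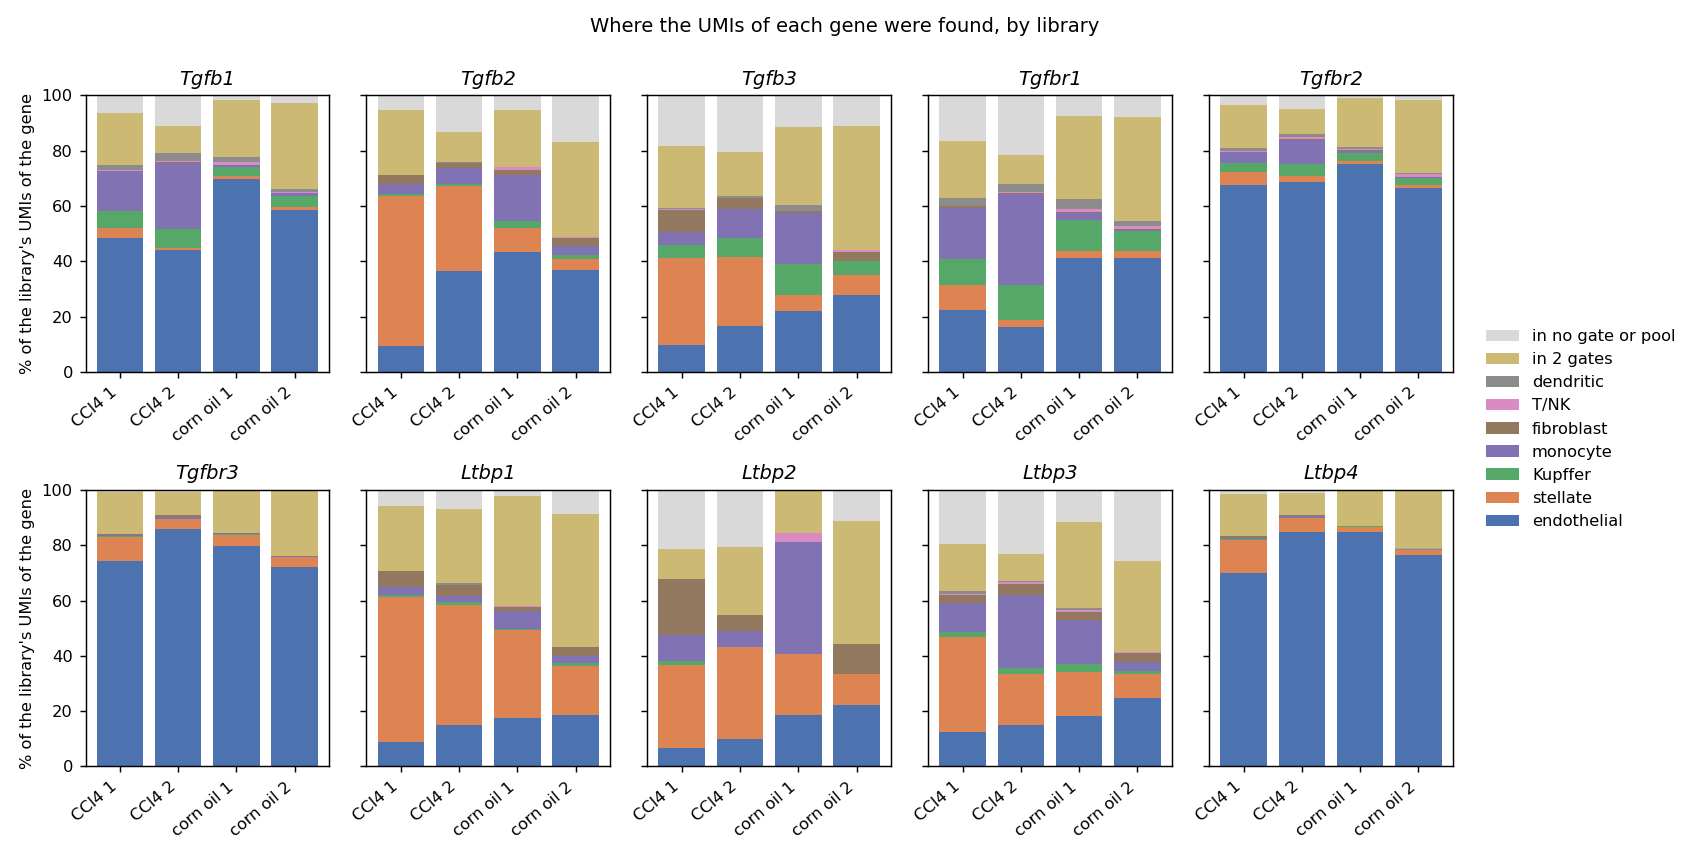
Share (%) of each library's UMIs of a gene that fell in each gate or pool of cells, with the CCl4 mice left of the corn oil mice. The T/NK, fibroblast and dendritic pools were gated for levels only, and cells in no gate or pool and cells in more than 1 gate are shown as their own parts. The stellate part of Tgfb2 is wider in the CCl4 mice (54.5% and 30.9%) than in the corn oil mice (8.76% and 3.81%), and endothelial cells hold most Tgfbr2, Tgfbr3 and Ltbp4 UMIs in all 4.

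Among the receptors, edgeR called Tgfbr3 (chr5:107106567-107289629) in the stellate gate, and neither of the other two in any gate. It encodes betaglycan, the type III receptor that presents TGF-beta2 to the signalling receptors and, shed from the cell, can hold ligand away from them. Its level in the stellate gate was 213.7 and 211.2 CPM in CCl4 mice, against 401.7 and 508.8 in corn oil mice. Both CCl4 mice were below both corn oil mice, at 0.451 of the corn oil level (log2 -1.15, SE 0.20, adjusted p = 0.00902). The call was lost without CCl4 1 (log2 -1.15) and without CCl4 2 (log2 -1.12), at the same size. Over the 14 alternatives run the log2 value ranged from -1.36 to -0.65. The smallest change, -0.65, came with another choice of cells or method, as fits without 1 mouse ran from -1.36 to -0.92. The share of stellate-gated cells with a Tgfbr3 UMI, thinned to 1500 UMIs, was 30.5% and 31.3% in CCl4 mice against 45.8% and 49.7% in corn oil mice.

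Endothelial Tgfbr3 was not called. It had 293.3 and 319.4 CPM in CCl4 mice against 229.3 and 272.5 in corn oil mice (log2 0.23, SE 0.14, adjusted p = 0.382). The difference between the stellate and the endothelial change was itself called (log2 -1.30, SE 0.26, adjusted p = 0.0396), 1 of the 30 such differences tested over the endothelial, stellate and Kupffer gates and in a comparison where 0.942% of all genes were called. No gene of the 10 was called in the differences of Kupffer from endothelial cells (2.52% of all genes) or from stellate cells (0.784%); in edgeR, Tgfbr3 had an unadjusted p under 0.05 in the one and Tgfb2 in the other. It was not called without CCl4 1 (log2 -1.37, adjusted p = 0.569), without CCl4 2 (log2 -1.23, adjusted p = 0.621) or when cells with UMIs of another gate were left out (log2 -1.29, adjusted p = 0.0713). The level was higher in stellate than in endothelial cells of corn oil mice and lower in CCl4 mice, and averaged over the 4 mice the 2 types did not differ beyond their spread (log2 0.10, SE 0.13, adjusted p = 0.563). Kupffer cells were far below both, at log2 -5.44 (SE 0.19) against endothelial cells. They had 3.8 and 3.8 CPM in CCl4 mice against 9.0 and 9.8 in corn oil mice (log2 -1.35, SE 0.42, adjusted p = 0.0585). The Kupffer value was called with no filter on low counts (log2 -1.28, adjusted p = 0.0477) and with gate thresholds multiplied by 2 (log2 -1.63, adjusted p = 0.0273). Endothelial markers in that gate were at 907 to 1079 CPM in CCl4 mice against 1679 to 1708 in corn oil mice, and stellate markers at 202 to 284 against 538 to 562; their part in this value was not tested.

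Tgfbr2 (chr9:116087695-116175363), the type II receptor that binds ligand first, was highest in endothelial cells. There it had 373.5 and 363.1 CPM in CCl4 mice against 334.7 and 316.1 in corn oil mice (log2 0.12, SE 0.12, adjusted p = 0.625). In stellate cells it had 160.4 and 175.1 in CCl4 mice against 148.8 and 192.1 in corn oil mice (log2 -0.07, SE 0.21, adjusted p = 0.864), and in Kupffer cells 136.8 and 143.5 against 165.5 and 189 (log2 -0.41, SE 0.15, adjusted p = 0.103). Monocyte-gated cells had 97.7 and 113.0 in CCl4 mice against 196.9 and 150.9 in corn oil mice (log2 -0.81, SE 0.21, adjusted p = 0.0918). That value was called by DESeq2 (log2 -0.86, adjusted p = 0.0228), with a gate without Vcan (adjusted p = 0.0264) and without corn oil 2 (log2 -0.92, adjusted p = 0.024). Averaged over mice, stellate cells were below endothelial cells (log2 -1.11, SE 0.11, adjusted p = 3.79e-06) and did not differ from Kupffer cells beyond their spread (log2 0.05 for Kupffer over stellate, SE 0.12, adjusted p = 0.736).

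Tgfbr1 (chr4:47353222-47414926), the type I receptor kinase, had another order, with Kupffer cells above stellate cells (log2 0.70, SE 0.17, adjusted p = 0.0032) and stellate cells above endothelial cells (log2 1.18, SE 0.17, adjusted p = 6.61e-05). Its values lay higher in CCl4 mice than in corn oil mice in all 4 gates and were called in none by edgeR as fitted here. The stellate gate had 91.4 and 81.8 CPM in CCl4 mice against 59.5 and 58.7 in corn oil mice (log2 0.52, SE 0.21, adjusted p = 0.159), and the gene was called with cells of both the stellate and the endothelial gate added (log2 0.87, adjusted p = 0.0181). With no filter on low counts it was called in the Kupffer gate (log2 0.58, adjusted p = 0.0209) and the monocyte gate (adjusted p = 0.00111, also higher). The Kupffer gate had 114.5 and 142.9 against 103.5 and 69.1 (log2 0.51, SE 0.20, adjusted p = 0.109, but 0.81 and adjusted p = 0.027 without corn oil 1). The endothelial gate had 35.6 and 29.96 against 28.5 and 26.9 (log2 0.19, SE 0.16, adjusted p = 0.54). In the monocyte gate there were 131.6 and 150.4 in CCl4 mice against 92.0 and 34.8 in corn oil mice (log2 0.95, SE 0.36, adjusted p = 0.185, but 1.94 and adjusted p = 0.0305 without corn oil 1). Over whole libraries Tgfbr1 had 72.2 and 85.9 CPM in CCl4 mice against 44.4 and 36.3 in corn oil mice, and monocyte-gated cells held 18.5% and 33.0% of its UMIs against 2.72% and 0.522%.

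**Figure D3:**
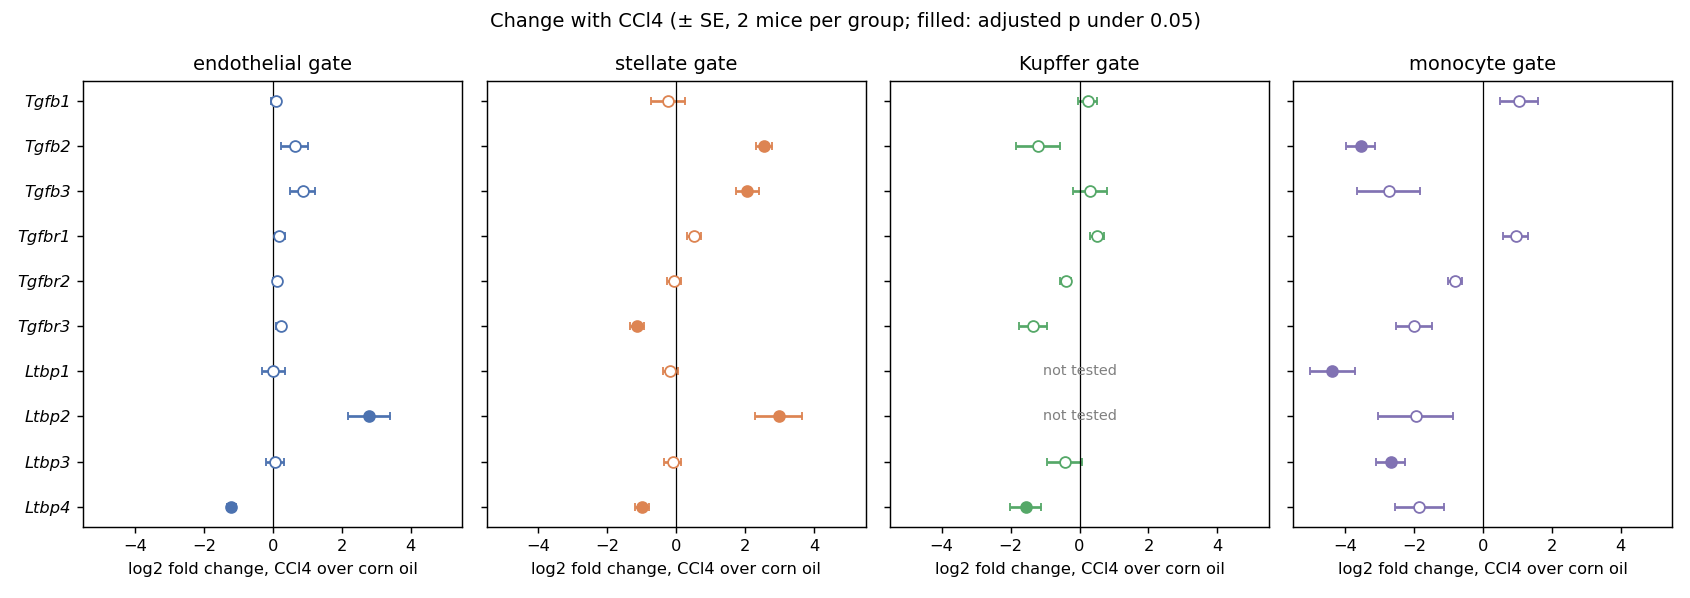
Log2 fold change of CCl4 over corn oil for the 10 genes in each gate, with the SE as a bar and filled points where the adjusted p of edgeR was under 0.05. Stellate cells show 3 filled points to the right of 0 (Tgfb2 at 2.54, Tgfb3 at 2.06, Ltbp2 at 2.97) and 2 to the left (Tgfbr3 at -1.15, Ltbp4 at -0.99). Ltbp1 and Ltbp2 had too few UMIs for a test in the Kupffer gate.

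The latency proteins moved in different directions. Ltbp4 (chr7:27305140-27339720), which binds the latent TGF-beta1 complex and takes part in elastic fibre assembly, was lower in both cell types that carried it. In the endothelial gate it had 359.5 and 352.7 CPM in CCl4 mice, against 777.3 and 792.2 in corn oil mice. Mice of a group lay close together and the groups were far apart, with CCl4 at 0.435 of the corn oil level (log2 -1.20, SE 0.13, adjusted p = 0.00616). It was called in all 12 alternatives run, at log2 -1.27 to -1.15. In the stellate gate it had 385.3 and 317.6 in CCl4 mice against 632.8 and 725.9 in corn oil mice (log2 -0.99, SE 0.20, adjusted p = 0.0155). That call was lost without CCl4 1 (log2 -1.14, adjusted p = 0.141), without CCl4 2 (log2 -0.84, adjusted p = 0.191) and with a stellate gate on Dcn and Pdgfrb chosen after seeing the data (log2 -0.85, adjusted p = 0.053). The 2 changes did not differ beyond their spread (log2 0.26, SE 0.37, adjusted p = 0.838), and neither did the levels of stellate and endothelial cells averaged over mice (log2 -0.19, SE 0.19, adjusted p = 0.432).

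The stellate Ltbp4 level was 81.4% to 107% of the endothelial one in the 4 mice, while endothelial markers in the stellate gate were at 0.77% to 1.52% of their level in the endothelial gate. Kupffer cells had little Ltbp4, at 10.2 and 3.8 CPM in CCl4 mice against 15.7 and 24.5 in corn oil mice (32 and 12 UMIs against 35 and 45; log2 -1.57, SE 0.46, adjusted p = 0.049). That call was lost without CCl4 2 (log2 -0.996, adjusted p = 0.211), without corn oil 2 (log2 -1.18, adjusted p = 0.158), with DESeq2 (log2 -1.58, adjusted p = 0.0683) and in 2 further alternatives. It was larger without CCl4 1 (log2 -2.47, adjusted p = 0.0153) and without the 5% of cells with most UMIs (log2 -2.61, adjusted p = 0.0184). The endothelial and stellate markers in the Kupffer gate, given with Tgfbr3 above, moved the same way. Their part in the Kupffer value was not tested. Over whole libraries Ltbp4 had 232 and 192 CPM in CCl4 mice against 590 and 575 in corn oil mice.

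Ltbp2 (chr12:84783212-84876558), the family member that is not known to bind latent TGF-beta and belongs to microfibrils, was higher in stellate cells. It had 25.6 and 62.2 CPM in CCl4 mice against 8.0 and 1.5 in corn oil mice, from 101 and 76 UMIs against 7 and 1. The groups did not overlap, although the mice of each group differed by more than for the other genes (fold 7.86, log2 2.97, SE 0.68, adjusted p = 0.0262). Of the 7 UMIs in corn oil 1, 6 lay in 11 cells with many Acta2 and Tagln UMIs. The call was lost without CCl4 1 (log2 3.56, adjusted p = 0.0671), without CCl4 2 (log2 2.32, adjusted p = 0.168), with the gate thresholds multiplied by 2 (log2 2.21, adjusted p = 0.145) and without the 5% of cells with most UMIs (log2 2.87, adjusted p = 0.052). Without corn oil 1 the log2 value was 4.65. In the endothelial gate it rested on 23 and 22 UMIs in CCl4 mice against 6 and 2 in corn oil mice (log2 2.80, SE 0.60, adjusted p = 0.0488), and that call was lost whichever mouse was left out (log2 2.31 to 3.63, adjusted p = 0.0633 to 0.202). Fibroblast markers in the endothelial gate were at 13.6 to 15.3 CPM in CCl4 mice against 4.31 to 5.99 in corn oil mice, and stellate markers at 390 to 469 against 253 to 288; their part in the Ltbp2 value was not tested. Over whole libraries Ltbp2 had 6.27 and 5.41 CPM in CCl4 mice against 0.678 and 0.189 in corn oil mice.

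Ltbp1 and Ltbp3, which bind the latent complexes of the TGF-beta isoforms, were not called in the stellate gate. Ltbp1 (chr17:75005480-75392512) had 103.6 and 141.6 CPM in CCl4 stellate cells against 143.0 and 121.7 in corn oil stellate cells (log2 -0.17, SE 0.21, adjusted p = 0.667). Adding the cells that passed both the stellate and the endothelial gate turned this value round (log2 0.62, adjusted p = 0.0419). Ltbp3 (chr19:5740900-5758536) had 92.6 and 105.6 in CCl4 mice against 130.5 and 73.3 in corn oil mice (log2 -0.10, SE 0.25, adjusted p = 0.844), and that value also turned round with the added cells (log2 0.61, adjusted p = 0.0768). Both genes overlapped between the groups. Averaged over mice, stellate cells exceeded endothelial cells in Ltbp1 by log2 5.39 (SE 0.24) and in Ltbp3 by log2 4.19 (SE 0.21), with adjusted p of 9.86e-10 and 3.34e-09 in edgeR, while Kupffer and endothelial cells did not differ beyond their spread in either.

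Stellate cells of 1 mouse differ in how far they express contractile genes, so the 10 genes were compared between stellate-gated cells with at least 5 UMIs of Acta2 and Tagln together and those with at most 1. These are ranges of a score and not cell types, and cells in between, 89 and 30 in the CCl4 mice, were left out. Only the CCl4 mice had at least 20 cells on each side, with 245 and 61 high cells and 128 and 53 low cells. Corn oil mice had 11 and 6 high cells, so the comparison rests on the 2 CCl4 mice alone. The score was not scaled for the depth of a cell. The high cells of CCl4 mice held 2258561 and 628850 UMIs in all, against 952035 and 378290 in the low cells. The part of depth in the split was not tested. Tgfb2 had 251.5 and 211.5 CPM in high cells of CCl4 1 and CCl4 2, against 94.5 and 66.1 in low cells of the same mice (log2 1.56, SE 0.20, adjusted p = 5.9e-06). Tgfb3 had 59.3 and 73.1 in high cells against 25.2 and 15.9 in low cells (log2 1.58, SE 0.32, adjusted p = 0.00212). These were the only 2 of the 10 genes called, against 4.83% of the 8164 genes tested. Betaglycan transcripts were at 187.7 and 167.0 in high cells against 267.8 and 214.1 in low cells (log2 -0.39, SE 0.17, adjusted p = 0.245).

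In corn oil 1, 22 of the 31 stellate Tgfb2 UMIs lay in the 11 high cells. In the high cells the groups overlapped for Tgfb2, at 251.5 and 211.5 CPM in CCl4 mice against 279.9 and 58.5 in corn oil mice, and for Ltbp2, at 26.1 and 87.5 against 76.3 and 0. They did not overlap there for Tgfb3, at 59.3 and 73.1 against 25.4 and 0, for Tgfbr3, at 187.7 and 167.0 against 318.1 and 614.2, or for Ltbp4, at 395.4 and 276.7 against 1183 and 935.9. The corn oil values in high cells rest on 11 and 6 cells, under the minimum of 20 cells. Those of Tgfb3 rest on 2 and 0 UMIs. No test was run on the high or the low cells between the groups. In the low cells Tgfb2 was at 94.5 and 66.1 CPM in CCl4 mice against 10.1 and 14.4 in corn oil mice, Tgfbr3 at 267.8 and 214.1 against 407.9 and 509.5, and Ltbp4 at 360.3 and 319.9 against 550.0 and 649.5. Ltbp2 was at 31.5 and 50.2 in low cells of CCl4 mice, from 30 and 19 UMIs, against 1 and 0 UMIs in those of corn oil mice. In none of these 4 genes did the groups overlap in low cells. Neither did they for Tgfb3, at 25.2 and 15.9 against 5.7 and 12.6, or for Tgfbr1, at 88.2 and 89.9 against 60.3 and 48.4. The share of all genes without overlap in high or low cells was not counted, so these separations are descriptive only.

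**Figure D4:**
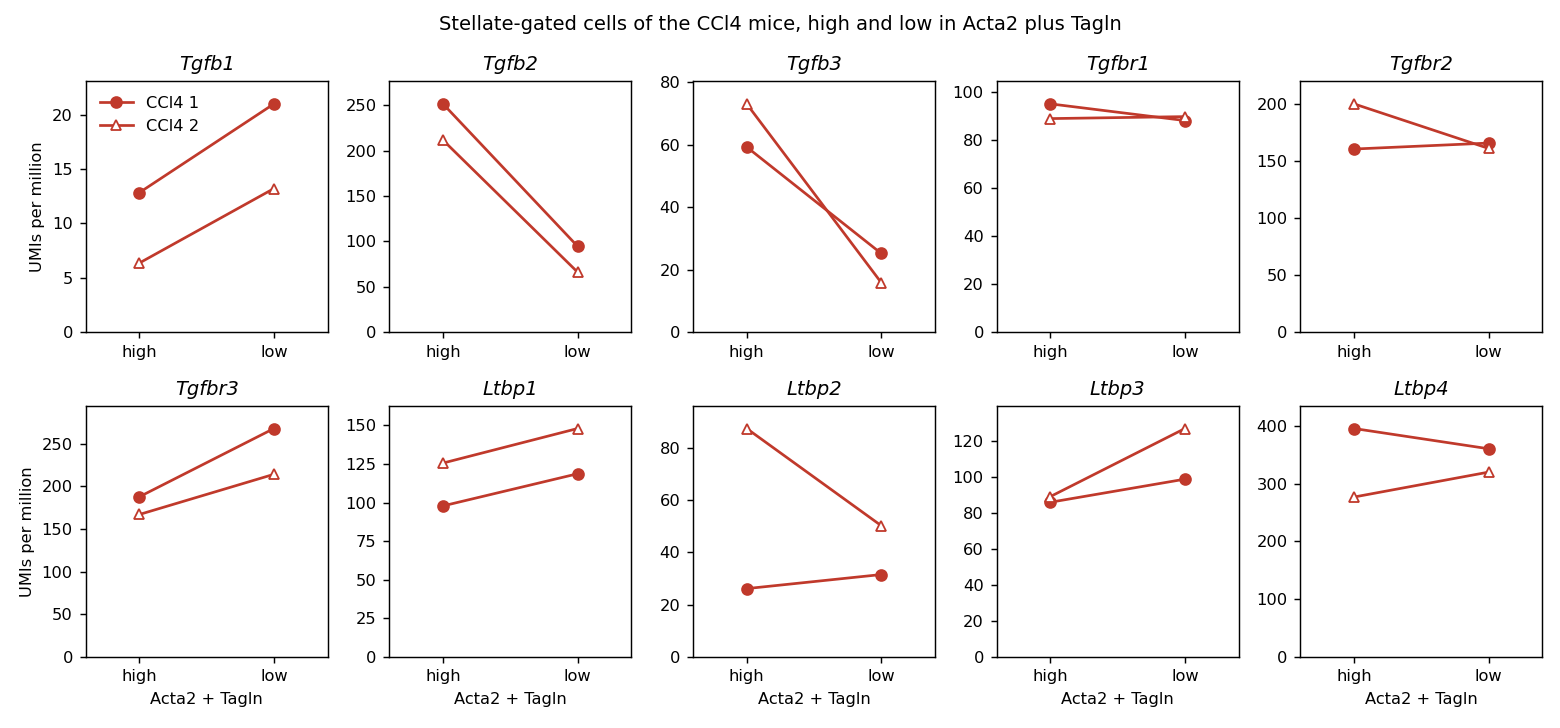
CPM of the 10 genes in stellate-gated cells of the CCl4 mice that were high (at least 5 UMIs) or low (at most 1) in Acta2 plus Tagln, with 1 line per mouse, filled circles for CCl4 1 and open triangles for CCl4 2. The lines of Tgfb2 (251.5 and 211.5 in high cells, 94.5 and 66.1 in low cells) and Tgfb3 fall from high to low cells in both mice.

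The other genes of the pathway were read from 5 lists (activators of latent TGF-beta, matrix anchors and extracellular regulators, coreceptors, SMADs with their regulators, and target genes). The lists were chosen with earlier results of these data known, so their counts are descriptive and do not test an excess. Among activators in the stellate gate, 3 of 11 tested were called, all higher, against 5.29% of all genes called higher and 10.2% called in either direction. Thbs1, which encodes thrombospondin 1, had 1024 and 903 CPM in CCl4 mice against 34.3 and 11.7 in corn oil mice (log2 5.29, SE 0.34, adjusted p = 0.000174). Plau, the urokinase plasminogen activator, had 39.1 and 64.7 against 4.6 and 0 (log2 4.23, SE 0.65, adjusted p = 0.00519), and Mmp14, a membrane metalloproteinase, had 197 and 304 against 80.1 and 86.5 (log2 1.53, SE 0.25, adjusted p = 0.0067). The list's median was log2 0.30, against -0.0020 for all genes tested. Thbs1 was put in the list with its direction in these mice already known. Of 13 anchors and regulators 3 were higher and 2 lower, against 5.29% and 4.91% of all genes. Fbn1 (fibrillin 1, log2 1.08, adjusted p = 0.00829), Emilin1 (log2 0.97, adjusted p = 0.00966) and Fbn2, at 34.3 and 39.3 CPM in CCl4 mice against 2.3 and 0 in corn oil mice, rose, while Ecm1 (log2 -1.63, adjusted p = 0.00312) and Dcn (decorin, log2 -0.85, adjusted p = 0.0481) fell.

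Of 6 coreceptors tested in the stellate gate, Bambi, a decoy receptor without a kinase domain, fell (74.9 and 79.4 CPM in CCl4 mice against 140 and 144 in corn oil mice, log2 -0.92, adjusted p = 0.0177) and Cd44 rose (159 and 127 against 72.1 and 77.7, log2 0.90, adjusted p = 0.0309). None of the 16 SMADs and regulators was called in stellate cells by edgeR, and their median was log2 0.04. Among 17 target genes tested 10 rose and 1 fell, against 5.29% and 4.91% of all genes, with a median of log2 1.98; this list and Thbs1 were chosen with their direction in these mice already known. The risers with the lowest p were Tagln (log2 2.82), the protease inhibitor gene Timp1 (log2 5.39), the collagen cross-linking enzyme gene Lox (log2 3.39) and the tropomyosin gene Tpm1 (log2 2.57), with adjusted p of 0.000301, 0.000381, 0.000546 and 0.000546. Tgfbi, which encodes a matrix protein induced by TGF-beta, was the one that fell, at 1178 and 809 CPM in CCl4 mice against 1912 and 1808 in corn oil mice (log2 -0.95, SE 0.22, adjusted p = 0.0288).

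In the endothelial gate 2 of 12 activators were called, against 5.42% of all genes. Mmp9 (log2 1.92, adjusted p = 0.0181) and Itgav, the integrin chain shared by latent TGF-beta receptors (38.8 and 39.3 CPM in CCl4 mice against 20.8 and 22.2 in corn oil mice, log2 0.80, adjusted p = 0.026), rose. The 3 neutrophil markers in this gate were at 54.8 and 52.2 CPM in CCl4 mice against 4.81 and 14.1 in corn oil mice, and their part in the values of Mmp9 and of Lrg1, given next, was not tested. Of 12 anchors and regulators 2 rose and 2 fell. Lrg1, a secreted protein that modulates endothelial TGF-beta signalling, had 640 and 478 in CCl4 mice against 70.0 and 44.5 in corn oil mice (log2 3.23, SE 0.27, adjusted p = 0.00343). Ecm1 (log2 -1.01, adjusted p = 0.0182) and Bgn (biglycan, log2 -0.97, adjusted p = 0.0211) fell. Nrp1, the one of 7 coreceptors called, fell to 431 and 537 in CCl4 mice, against 1040 and 997 in corn oil mice (log2 -1.14, SE 0.14, adjusted p = 0.0103). Skil, a SMAD corepressor that TGF-beta itself induces, was the only one of 16 SMADs and regulators called (log2 0.63, SE 0.13, adjusted p = 0.0411), and 2 of 17 target genes, Timp1 (log2 2.92, adjusted p = 0.00866) and Tnc, rose. The 1 of 16 is close to the share over all genes. Stellate markers in this gate were at 390 to 469 CPM in CCl4 mice against 253 to 288 in corn oil mice, and fibroblast markers at 13.6 to 15.3 against 4.31 to 5.99; their part in the Timp1 and Tnc values was not tested.

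In the Kupffer gate 3 activators rose and 3 fell among 9 tested, in a gate where 15.3% of all genes were called. Mmp14 had 64.9 and 46.0 CPM in CCl4 mice against 12.1 and 14.7 in corn oil mice (log2 1.99, SE 0.27, adjusted p = 0.00274), and Plau 59.1 and 75.1 against 12.6 and 22.9 (log2 1.87, SE 0.29, adjusted p = 0.00417), while Mmp9 (log2 -2.50, adjusted p = 0.0215) and Itgb5 (log2 -0.68, adjusted p = 0.0227) fell. Smad7, the inhibitory SMAD, had 49.2 and 47.3 in CCl4 mice against 104 and 99.6 in corn oil mice (log2 -1.14, SE 0.16, adjusted p = 0.00315). It was the only 1 of 16 SMADs and regulators called in this gate, a share below the 15.3% of all genes. The 4 anchors called there, Fn1, Bgn, Ecm1 and Dcn, were all lower, and so were the stellate markers named above, whose list also holds Dcn and Ecm1; their part in these values was not tested. Of 13 target genes 2 rose and 3 fell, among them Id1 (log2 -0.78, adjusted p = 0.00905). Of 6 coreceptors Nrp2 rose (log2 2.29, adjusted p = 0.00239) and Eng, which encodes endoglin, fell (log2 -1.71, adjusted p = 0.0282). The 7 endothelial markers moved with Smad7 and Eng in this gate, at 907 to 1079 CPM in CCl4 mice against 1679 to 1708 in corn oil mice. Their sum in the Kupffer gate was 6.79% to 8.77% of that in the endothelial gate. Ltbp4 was there at 1.07% to 3.09% of its endothelial level, and Tgfbr3 at 1.18% to 3.92%. How much of the marker sum is endothelial RNA, and its part in the values of Smad7 and Eng, was not tested. In the monocyte gate 5.47% of all genes were called, and 3.06% were called lower. Tested there were 11 activators, 10 anchors and regulators, 8 coreceptors, 16 SMADs and regulators and 16 target genes. Over the 5 lists 2 genes rose, Skil (log2 1.34, adjusted p = 0.0434) and Tgfbi, at 907 and 738 CPM in CCl4 mice against 173 and 159 in corn oil mice (log2 2.24, adjusted p = 0.0118), and 6 fell. The change of cells in that gate, given above, touches these values too.

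Across the 16 sums of gate and mouse, the genes most like each of the 10 in log2 level were found among 8860 genes with a mean of at least 10 CPM. These correlations describe patterns over 4 cell types and share their mice. The sums include the mixed monocyte gate of corn oil mice, where Gata6 had a UMI in 16 of 43 and 9 of 23 cells. In that gate Tgfb2 and Ltbp3 were also higher in corn oil than in CCl4 mice. The part of those sums in the correlations was not tested. Tgfb2 was nearest to Fzd1 (Pearson r = 0.93), Gata6 (r = 0.92) and Galnt1 (r = 0.91), and Fzd1 and Gata6 also led the list of Ltbp3 (r = 0.96 and 0.95). Tgfb3 was nearest to Ildr2, Tpm2 and Nnmt (r = 0.92 to 0.90), and Ltbp2 to Prrx1, Col15a1 and Col4a5 (r = 0.97 to 0.96). Tgfbr3 was nearest to Camk2n1, Tns1 and Cdc42bpa (r = 0.99 to 0.98), Ltbp4 to Tns2, Slc43a3 and Nr2f1 (r = 0.99 to 0.98), and Tgfbr2 to Afdn, Cavin2 and Ripply3 (r = 0.97 to 0.96). Tgfbr1 was nearest to Chmp4b (r = 0.96), Ltbp1 to Nt5e (r = 0.97), and Tgfb1 to Zfp984 (r = 0.91).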

How the data were processed

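The count tables, 1 per mouse, hold UMI counts per cell and gene as deposited. Per the file headers they came from the BD WTA Rhapsody Analysis Pipeline 1.9.1 with GRCm38 and GENCODE vM19. The aligner and any use of strand in counting are not given in the sources used here. Shares of cells are given without intervals, which would cover counting error only. A cell was kept from 200 genes upward if mitochondrial UMIs were at most 25%, which left 25861 of 27091. No doublet caller was run; 549 and 283 cells in CCl4 mice and 630 and 883 in corn oil mice passed more than 1 gate and were dropped from the gates.

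UMIs were summed per gate and mouse. edgeR 4.0.16 in R 4.3.3 (TMM scaling, filterByExpr, quasi-likelihood test, Benjamini-Hochberg over all genes tested) compared CCl4 with corn oil in each gate, and 1 model over the 16 sums with the mouse as a block compared gates. The scripts were tested on simulated data. DESeq2 1.42.0, other scaling, filters, gates and left-out mice were alternatives. A monocyte gate without Vcan, a stellate gate on Dcn and Pdgfrb, and the adding of joint stellate and endothelial cells were chosen after seeing the data. The members and lists were chosen with earlier results of these data known. Beyond the 10 genes, the text names at most the 4 genes with the lowest p per list and gate, and the 3 genes with the most similar pattern; Dcn and Tgfbi in stellate cells were named after their values were seen. Each sample is 1 mouse per the labels. Values of some other genes are not reported here.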

Additional observations from a re-analysis of the deposited data

Results flagged for a closer look

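The change with CCl4 differed between cell types, by a test of the difference itself in edgeR, for 15 pairs of gene and gates. Tgfbr3 changed by log2 -1.30 in stellate relative to endothelial cells (SE 0.26, adjusted p = 0.0396); the fits that end this call are given with the receptors above.

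The other 14 involve the monocyte gate, whose corn oil side held a mixture of 43 and 23 cells, and where 11.8%, 14.2% and 12.9% of all genes were called against the endothelial, Kupffer and stellate gates. Relative to endothelial cells the difference was log2 -4.39 for Ltbp1, -2.59 for Ltbp3, -4.09 for Tgfb2, -3.48 for Tgfb3, -0.86 for Tgfbr2 and -2.25 for Tgfbr3. Without corn oil 1 these were -0.61 for Tgfbr3 (adjusted p = 0.791) and -1.57 for Ltbp3 (adjusted p = 0.0585), and Tgfbr2 was called in 2 of 7 alternatives. Relative to stellate cells it was -4.22 for Ltbp1, -4.79 for Ltbp2, -2.54 for Ltbp3, -6.12 for Tgfb2 and -4.78 for Tgfb3. Relative to Kupffer cells it was -4.57 for Ltbp1, -2.19 for Ltbp3 and -3.00 for Tgfb3. In the monocyte gate Tgfb3 and Ltbp2 had 26 and 13 UMIs in corn oil 1 and none in corn oil 2. Without 1 mouse the Tgfb3 difference turned to log2 7.45, 6.27 and 7.09 relative to endothelial, stellate and Kupffer cells. That of Ltbp2 relative to stellate cells turned to 3.11. Fits against a gate with no UMI of the gene are no bound. Leaving out 1 mouse left between 4 (without CCl4 2 or without corn oil 1) and 16 (without corn oil 2) such calls.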

How the results depend on the processing

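Genes called in the endothelial gate numbered 726, against 1466 with DESeq2, 2302 with no filter on low counts, 2051 with the replicate block and 183 to 894 without 1 mouse. In the stellate gate there were 916, against 609 with DESeq2, 1577 with no filter, 2432 with cells of both the stellate and endothelial gates added, and 107 to 1345 without 1 mouse. In the Kupffer gate there were 1522, against 873 with DESeq2, 2321 with no filter and 585 to 1464 without 1 mouse. In the monocyte gate there were 557, against 910 with DESeq2, 2061 with no filter, 1052 with a gate without Vcan, and 0 to 1658 without 1 mouse; the 0 of edgeR without CCl4 1 or CCl4 2 stood beside 711 and 697 genes at an unadjusted p under 0.05. Of the 10 genes, 2 were called in the endothelial gate, against 1 with at most 15% mitochondrial UMIs, with gate thresholds multiplied by 2, with cells holding UMIs of another gate left out, and without any 1 mouse. In the stellate gate 5 were called, against 7 with joint cells added (Tgfbr1 and Ltbp1 among them) and 1 to 5 without 1 mouse. In the Kupffer gate 1 was called, against 0 with DESeq2 (1 at an unadjusted p under 0.05), 3 with no filter, 0 with at most 15% mitochondrial UMIs (5 unadjusted in edgeR), 2 with thresholds multiplied by 2, 0 with cells of mixed UMIs left out (2 unadjusted in edgeR) and 0 to 2 without 1 mouse. In the monocyte gate 3 were called, against 8 with no filter and 0 to 8 without 1 mouse. Differences between gates numbered 1 over the pairs without the monocyte gate, against 4 with no filter, 2 with thresholds multiplied by 2, 0 with cells of mixed UMIs left out (6 unadjusted in edgeR) and 0 to 1 without 1 mouse, and 14 over the pairs with it, against 17 with no filter and 4 to 16 without 1 mouse. The stellate comparison of high with low cells called 394 genes, against 208 with thresholds multiplied by 2, where Ltbp4 turned to log2 -0.075. Direction turned, for genes not called, without 1 mouse in these ranges of log2: endothelial Tgfb2 -0.10 to 1.11, Tgfbr1 -0.0016 to 0.34, Ltbp1 -0.24 to 0.33 and Ltbp3 -0.087 to 0.25; stellate Tgfb1 -0.85 to 0.14, Tgfbr2 -0.30 to 0.17, Ltbp1 -0.37 to 0.061 and Ltbp3 -0.40 to 0.33; Kupffer Tgfb1 -0.078 to 0.64, Tgfb3 -0.089 to 0.98 and Ltbp3 -0.88 to 0.42; monocyte Tgfb1 -0.0014 to 2.15, Tgfb3 -3.38 to 7.22, Ltbp2 -2.85 to 7.06 and Ltbp4 -2.38 to 0.83. Differences turned for Tgfb3 between the monocyte gate and the endothelial (-4.29 to 7.45), stellate (-5.67 to 6.27) and Kupffer gates (-3.13 to 7.09) and for Ltbp2 between monocyte and stellate (-6.40 to 3.11), as did the monocyte over endothelial level of Tgfb3 (-1.54 to 3.32); fits against the corn oil 2 gate, with no UMI of these genes, are no bound. Other turns were endothelial Ltbp1 at -0.043 and Kupffer Tgfb3 at -0.024 with at most 15% mitochondrial UMIs, endothelial Ltbp3 at -0.0073 without the 5% of cells with most UMIs, stellate Tgfb1 at 0.0089 with at most 15% mitochondrial UMIs and 0.058 with thresholds multiplied by 2, stellate Tgfbr2 at 0.0035 with no filter, and stellate Ltbp1 at 0.62 and Ltbp3 at 0.61 with joint cells added. The causes were not tested. Replicate numbers do not pair the mice by label and only 2 pairs exist; same-numbered mice deviated together with correlations of 0.37, 0.13, 0.15 and 0.32 in the endothelial, stellate, Kupffer and monocyte gates, and the block changed no call of the 10 genes. With thresholds multiplied by 2 the monocyte gate of corn oil 2 held 19 cells, under the minimum of 20, and was not run, and the high and low comparison has no fit without 1 of its 2 mice.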
